A study of Mus musculus with 15 samples.

Results

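The genes described here are 39 genes of the G1/S transition and of DNA replication, followed in lung metastases of a mouse melanoma under 4 levels of dietary methionine. They were taken as a list of gene symbols and matched to the Ensembl gene IDs of the deposited files; all 39 were found among 37620 IDs, and all 39 passed the filter on low counts that left 16001 genes for testing. The tumour is B16-F10.1, a pigmented melanoma line that colonises the lung when injected into a tail vein. Male C57BL/6J mice, 8 weeks old, received 100000 cells, carried the tumours for 21 days and then ate a test diet for 2 weeks before metastatic tissue was taken; every library therefore comes from tumour-bearing mice, and no library is from tumour-free lung or from cultured cells. The diets are named by their methionine: adequate (3 libraries), supplemented to 300% (6 libraries), restricted to 25% (3 libraries) and deficient at 0% (3 libraries). Nothing in the labels states that the libraries are from different mice; the p-values below reflect only how far these samples spread, which may be technical. Libraries are numbered within a diet in the order of deposition, and the numbers pair nothing.

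Cells commit to division late in G1, when cyclin E with its kinase helps to release E2F transcription factors from the retinoblastoma protein. E2F1 and E2F2 then drive a shared set of genes whose products load and start replication origins, copy DNA, supply nucleotides and rebuild chromatin. Origins are licensed when the origin recognition complex, Cdc6 and Cdt1 load the ring of Mcm2 to Mcm7, and they fire when Cdc45 and GINS join that ring. In tumour tissue the RNA of these genes is widely read as a sign of how many cells are in or near S phase, and in bulk RNA fewer cycling cells cannot be told apart from less RNA per cycling cell.

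Promoter sequence shows what many of these genes share. In RefSeq promoters of mouse build GRCm38.p6, from 250 bases before a gene's start to 50 bases after it (300 bases), 33 of the 39 genes had an entry. Words of an E2F site (TTTGGCGC, TTTCCCGC, TTTCGCGC or TTTGCCGC, on either strand) were present in 13 of 33 (39.4%), against 704 of 27025 genes in the whole table (2.6%). At least 2 such words, overlapping matches included, were present in 5 of 33 (15.2%; Mcm3, Mcm5, Mcm6, Mcm7 and Rfc3), against 0.107% of all genes. Holding an E2F word was not particular to the 39 genes. In further lists of pathway genes, described below, a word was present in 6 of 14 promoters of other S phase chromatin genes. It was present in 7 of 20 of other G1/S control genes and 8 of 28 of other replication factors, but in only 1 of 17 of other nucleotide synthesis genes. A comparison list of 40 G2/M and mitosis genes had such a word in 1 of 34 promoters (2.94%). That list instead held the words of a cell cycle homology element (TTTGAA or TTCGAA, either strand) in 25 of 34 promoters (73.5%), against 7 of 33 for the replication genes (21.2%) and 21.7% of all genes. The CCAAT box (CCAAT, either strand) was found in 60.6% of the replication genes, 73.5% of the G2/M genes and 41.1% of all genes. A match describes letters in this window and no more.

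The sequences below show E2F words of the helicase genes Mcm6, Mcm5 and Mcm3. Mcm7, which holds 2 separate words, is not shown. Also shown are the words of 3 genes that had some of the smallest p-values in the diet comparisons (Cdc6, Pola1 and E2f2). Capitals mark E2F words; in Mcm6 and Mcm5 a run of 12 capitals is a pair of overlapping words on opposite strands. Mcm6, Mcm5, Cdc6 and Pola1 are shown for the 250 bases before the start, at chr1:128359706-128359955 (minus strand), chr8:75109259-75109508 (plus), chr11:98907901-98908150 (plus) and chrX:93632156-93632405 (minus). Mcm3 and E2f2 are shown only around words that lie after the start, at chr1:20820267-20820293 (minus) and chr4:136172301-136172323 (plus).
Mcm6: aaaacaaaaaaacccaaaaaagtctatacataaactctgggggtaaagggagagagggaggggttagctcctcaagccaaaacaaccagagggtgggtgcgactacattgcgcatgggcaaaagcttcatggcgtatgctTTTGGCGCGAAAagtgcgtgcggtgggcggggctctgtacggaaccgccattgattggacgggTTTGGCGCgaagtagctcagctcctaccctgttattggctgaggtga
Mcm5: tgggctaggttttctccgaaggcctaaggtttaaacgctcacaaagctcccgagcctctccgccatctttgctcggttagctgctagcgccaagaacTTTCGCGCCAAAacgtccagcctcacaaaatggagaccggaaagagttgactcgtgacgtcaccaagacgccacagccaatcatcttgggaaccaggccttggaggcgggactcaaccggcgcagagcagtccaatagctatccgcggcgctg
Cdc6: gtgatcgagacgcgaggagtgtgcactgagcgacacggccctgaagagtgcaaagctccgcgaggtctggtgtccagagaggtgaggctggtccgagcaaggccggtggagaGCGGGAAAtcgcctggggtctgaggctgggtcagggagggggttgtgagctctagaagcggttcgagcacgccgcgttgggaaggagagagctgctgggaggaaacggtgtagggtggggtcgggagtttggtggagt
Pola1: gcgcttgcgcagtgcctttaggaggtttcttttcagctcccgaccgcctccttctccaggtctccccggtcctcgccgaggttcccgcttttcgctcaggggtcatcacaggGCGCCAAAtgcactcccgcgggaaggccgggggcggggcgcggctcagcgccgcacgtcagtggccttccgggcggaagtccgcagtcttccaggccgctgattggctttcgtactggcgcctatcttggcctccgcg
Mcm3: GCGGGAAAacttgggaagtTTTGGCGC
E2f2: ggcggcatatagTTTGGCGCtaa

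Total expected counts per library ran from 13107679 to 29994264, of which the 39 genes took 0.151% to 0.368%. The tumour label was checked with 8 melanocyte genes, whose mean log2 CPM (CPM, counts scaled to library size) lay between 9.79 and 10.70 in every library; none of the 8 was at 0 anywhere. Markers of lung tissue varied far more. The mean log2 CPM of 8 alveolar type 2 genes ran from -0.91 in supplemented library 5 and 1.05 in restricted library 2 to 8.96 in deficient library 3. Supplemented library 5 also held skeletal muscle RNA, with a mean of 7.87 for 3 muscle genes against at most 1.22 in the other libraries. Adequate library 1 had the lowest scaling factor, 0.690.

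Per kilobase of effective transcript length, Pcna was the most abundant of the 39 genes and Orc1 the least. Pcna, the sliding clamp that holds polymerases on DNA, averaged 191.4 CPM per kb over 15 libraries. Tk1, the thymidine salvage kinase, followed at 81.5 and Mcm2 at 65.2. At the other end stood E2f2 (3.88), the GINS subunit gene Gins3 (3.33) and the origin subunit gene Orc1 (2.06), with 31 to 202 counts per library for Orc1. The order within complexes was steady in some and not in others. Among Mcm2 to Mcm7, Mcm2 was highest and Mcm4 lowest per kb in 15 of 15 libraries, with a ratio between 2.67 and 3.52. Rrm2, the small subunit of ribonucleotide reductase, exceeded the large subunit Rrm1 per kb in 15 of 15 libraries (ratio 1.06 to 1.98). Ccne1 exceeded Ccne2, the other cyclin E gene, in 14 of 15, the exception being deficient library 3. E2f1 exceeded E2f2 per kb in 15 of 15, and Chaf1b exceeded its chromatin assembly partner Chaf1a in 15 of 15. Among the small clamp loader subunits (Rfc2 to Rfc5), Rfc4 was lowest in 14 of 15 but Rfc5 was highest in only 8. In the primase and polymerase alpha trio, Prim1 was highest in 11 libraries and Pola2 lowest in 7. The effective length was estimated separately in each library, so a gene whose isoforms differ in length, such as Gins2, varies more on this scale than in CPM.

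**Figure D1:**
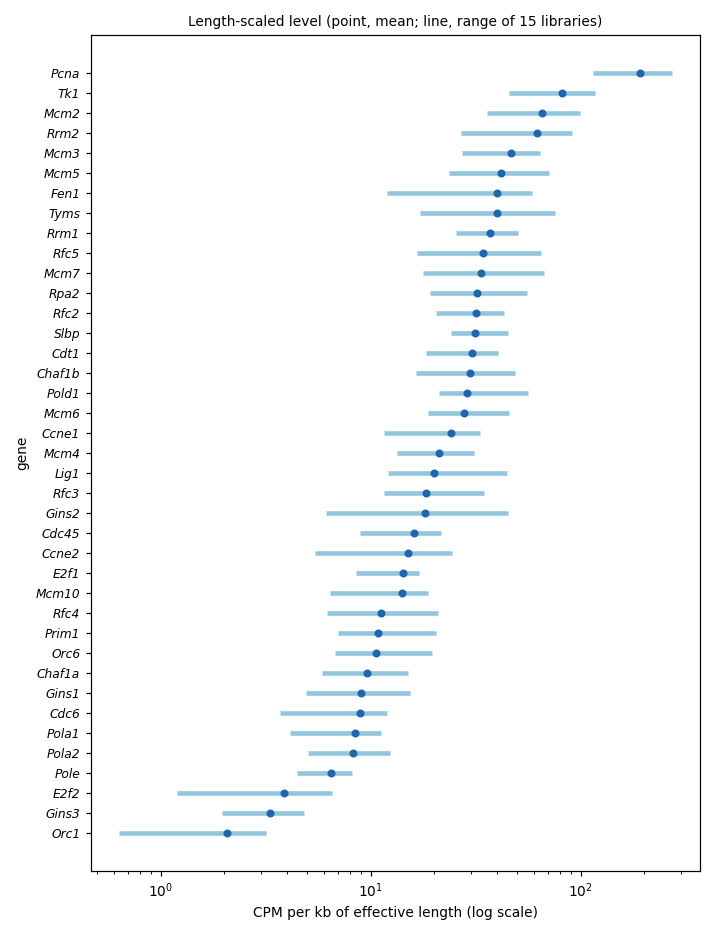
Mean level of each of the 39 genes over 15 libraries, in CPM per kilobase of effective length on a log axis; lines span the lowest and highest library. Pcna lies highest at 191.4 and Orc1 lowest at 2.06.

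The 39 genes varied together from library to library, and mostly not by diet. For each gene the mean log2 CPM over the 15 libraries was subtracted, and the remainders were averaged over the 39 genes. This joint level was -0.60 in adequate library 2 and -0.58 in deficient library 3, and it was 0.56 in supplemented library 5 and 0.28 in adequate library 1. The other 11 libraries lay between -0.24 and 0.19. Adequate library 2 was the lowest library for 19 genes and deficient library 3 for 16; supplemented library 5 was the highest for 25 genes and adequate library 1 for 9. The adequate group thus held both the lowest library and the next highest after supplemented library 5. The place of adequate library 1 depends on its scaling factor of 0.690, which enters the CPM of every gene there. Before scaling, the 39 genes took 0.175% of its counts, against 0.234% in adequate library 3 and 0.368% in supplemented library 5.

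By diet, the joint level was -0.09 ± 0.46 in adequate (SD, n = 3), 0.05 ± 0.29 in supplemented (n = 6), 0.14 ± 0.05 in restricted (n = 3) and -0.15 ± 0.38 in deficient (n = 3). The 3 restricted libraries, at 0.11, 0.12 and 0.19, lay close together. All 4 diets overlapped, deficient library 2 lying level with the lowest restricted library at 0.11. Between-diet differences took a median of 18.05% of each gene's variance in log2 CPM, against 21.6% over all genes tested. Over the 15 libraries, which the genes share along with their scaling, the 741 gene pairs had a median Pearson correlation of 0.687. After diet means were removed the median was 0.740. With the mean of the other 38 genes, 24 of the 39 genes correlated above 0.8, led by Mcm7 at 0.984. Only E2f2 (0.0759), Gins2 (0.213) and E2f1 (0.389) were below 0.5.

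**Figure D2:**
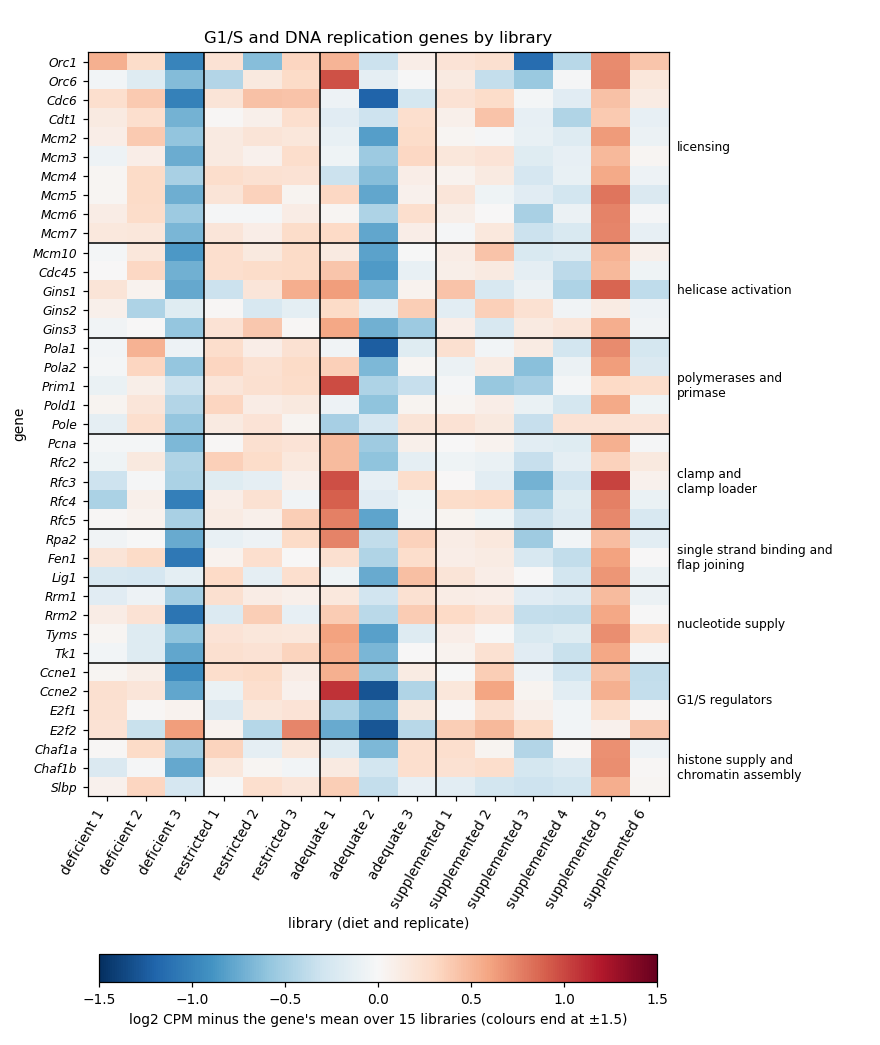
log2 CPM of each gene minus its mean over 15 libraries (colour), with genes in rows by role and libraries in columns by diet. Deficient library 3 and adequate library 2 are blue for nearly all genes and supplemented library 5 is red; the E2f2 row departs from this, red in deficient library 3 and blue in all 3 adequate libraries.

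Melanocyte genes were lowest in the same libraries as the replication genes. Centred on its mean, the level of the 8 melanocyte genes was -0.58 in deficient library 3 and -0.35 in adequate library 2, and -0.07 or higher in the others, and its part in the result was not tested. Lung RNA tended to be higher where the replication genes were lower, though not in strict order. Libraries with an alveolar type 2 level of 6.38 or higher all had joint levels below 0, and the rest lay above 0. Deficient library 3 had the highest alveolar type 2 level (8.96) and a low joint level. Adequate library 2, equally low in the replication genes, had an alveolar type 2 level of 6.38, while supplemented library 6 had 7.15 with a joint level of -0.03. Supplemented library 5 had the lowest alveolar type 2 level (-0.91) and the highest joint level, while restricted library 2, next lowest at 1.05, had a joint level of 0.12. The summed CPM of the 8 alveolar type 2 markers ranged from 223 to 952 in adequate, 46.0 to 1695 in supplemented, 75.7 to 578 in restricted and 195 to 6128 in deficient libraries. Sftpa1 and Sftpd were at 0 in 1 library each and Lamp3 in 2. The part of these markers in the level of the replication genes was not tested beyond the covariate fit given in the closing section.

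Tests used edgeR's quasi-likelihood method with Benjamini-Hochberg adjustment over 16001 genes, and a gene was called at an adjusted p under 0.05. No gene of the 39 was called in any of the 6 pairwise diet comparisons or in the test of any difference among diets. The share of all genes called was 0.00625% (1 gene) for deficient against adequate and for any difference, and 0% in the other 5 comparisons, so few calls were made anywhere. At an unadjusted p under 0.05, 1 member was higher in deficient than in adequate (E2f2), 2 in restricted (E2f2 and Cdc6) and 2 in supplemented (E2f2 and E2f1). Over all genes, 9.29%, 4.87% and 4.85% were higher at that level, in the same order. None of the 39 was lower, against 5.84%, 4.31% and 4.92% of all genes. These counts hung on few libraries. In restricted, 0 were higher without restricted library 3 (611 of 16761 genes tested) and 9 without adequate library 1 (850 of 16645). In supplemented, 6 were higher without adequate library 1 (740 of 16645). In deficient, 6 were lower and 1 higher without adequate library 2, where 6.22% of all genes were lower and 1376 of 16693 higher. In deficient against restricted none of the 39 passed in either direction, where 5.16% of all genes were higher and 2.28% lower. None passed in deficient against supplemented (all genes 3.69% higher and 1.76% lower) or in restricted against supplemented (1.08% higher and 1.1% lower). In the test of any difference E2f2 had the smallest p of the 39 (unadjusted p = 0.0153, adjusted p = 0.444), where 9.47% of all genes were under 0.05. The 3 comparisons against adequate share their control libraries, so they do not count separately. DESeq2 called 1 of the 39, E2f2 in supplemented against adequate (adjusted p = 0.0418). In that comparison DESeq2 called 137 of all genes, where edgeR called 0.

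Of the 10 licensing genes, 5 had log2 fold changes above 0 in deficient, 8 in restricted and 8 in supplemented against adequate. Cdc6, which loads the helicase ring onto origins, had CPM values of 22.1, 10.1 and 19.5 in adequate, 26.8, 31.7 and 31.3 in restricted and 27.8, 30.7 and 11.5 in deficient libraries. In supplemented libraries it ran from 20.9 through a median of 26.3 to 31.6. All 3 restricted libraries were above all 3 adequate libraries, and deficient library 3 sat among the adequate ones. The log2 fold change in restricted against adequate was 0.80 (SE 0.32, unadjusted p = 0.0253, adjusted p = 0.472 by edgeR), and without adequate library 2 it was 0.53.

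Mcm2, a subunit of the helicase ring, stood at 189.9, 115.9 and 249.3 CPM in adequate, 224.7, 235.1 and 231.3 in restricted and 220.4, 270.0 and 135.8 in deficient libraries, and from 179.6 through 197.7 to 320.0 in supplemented. The restricted libraries lay inside the adequate range. Its log2 fold changes against adequate were 0.17 (deficient), 0.32 (restricted) and 0.22 (supplemented), with edgeR adjusted p-values of 0.807 for each of deficient and supplemented and 0.806 for restricted. Without adequate library 2 the fold changes were -0.07, 0.07 and -0.03, and without adequate library 3 they were 0.45, 0.59 and 0.50. Mcm4, another subunit, was above all adequate libraries (57.5, 46.3 and 77.2) in the restricted libraries (86.3, 84.0 and 83.2), with a log2 fold change of 0.49 (SE 0.24, with an adjusted p of 0.571 by edgeR). Orc1, the large subunit of the origin recognition complex, had log2 fold changes from -0.11 to 0.05 over the 6 comparisons, with an SE between 0.41 and 0.48. In deficient against restricted, Mcm3 had a log2 fold change of -0.35 (SE 0.24, with an adjusted p of 0.805 by edgeR), which was -0.14 without deficient library 3 and -0.53 without deficient library 2.

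Of the 5 genes of helicase activation, Gins2 and Gins3 were the ones named by the rule of selection. Gins2, which encodes a subunit of the GINS complex that joins the helicase, had its highest CPM in adequate library 3 (34.01) and its lowest in deficient library 2 (19.1), a range of 1.78-fold. Its adequate libraries stood at 32.1, 23.9 and 34.01, its restricted libraries at 26.6, 22.3 and 23.8 and its deficient libraries at 27.8, 19.1 and 23.1. The log2 fold change in restricted against supplemented was -0.20 (SE 0.17, with an adjusted p of 1 by edgeR). Gins3 ran from 4.46 CPM in adequate library 2 to 10.96 in adequate library 1, so its extremes were both within the adequate diet. All deficient libraries (7.10, 7.37 and 4.93) were below all restricted ones (8.57, 9.74 and 7.46), with a log2 fold change of -0.41, an SE of 0.34 and an edgeR adjusted p of 0.847 (-0.25 without deficient library 3).

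Among the polymerase and primase genes (5 members), Pola1 had the smallest p-values in the comparisons against adequate. Pola1 encodes the catalytic subunit of polymerase alpha, which extends the primers made by primase. Its CPM was 26.6, 11.7 and 24.3 in adequate, 33.2, 29.6 and 32.5 in restricted and 26.8, 39.6 and 26.3 in deficient libraries, and 22.8 to 45.4 with a median of 28.5 in supplemented. Restricted libraries were all above adequate ones; deficient libraries overlapped them slightly. The log2 fold changes against adequate were 0.57 in deficient (SE 0.30, with an adjusted p of 0.383 by edgeR), 0.61 in restricted (SE 0.30, 0.574) and 0.53 in supplemented (SE 0.27, 0.535). Without adequate library 2 these came to 0.28, 0.32 and 0.24. Pola2 and Prim1, the polymerase alpha accessory subunit and the primase catalytic subunit, each had a log2 fold change of 0.28 in restricted against supplemented, with SEs of 0.27 and more. Pola2 had 0.18 without supplemented library 3 and 0.44 without supplemented library 5.

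In the clamp and its loader (5 members), adequate library 1 stood out, with a joint level of 0.71 for the 5 genes against -0.44 and 0.02 in the other adequate libraries. Supplemented library 5 was nearly as high, at 0.67. The level of adequate library 1 includes its low scaling factor of 0.690. Pcna was at 321.7, 158.8 and 243.9 CPM in adequate, 233.6, 271.8 and 266.5 in restricted, 226.7, 226.8 and 144.1 in deficient, and 204.1 to 334.2 (median 229.9) in supplemented libraries. The deficient libraries were all below the restricted ones, at a log2 fold change of -0.37 (SE 0.26, with an adjusted p of 0.805 by edgeR), or -0.18 without deficient library 3. Pcna's fold change in deficient against adequate was -0.28 (SE 0.26), in restricted 0.09 and in supplemented 0.00 on the log2 scale, all within the spread of the adequate libraries. Without adequate library 1 these were -0.02, 0.34 and 0.25, and without adequate library 2 they were -0.51, -0.14 and -0.23.

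Rfc3, a small subunit of the clamp loader, had 38.6, 18.1 and 23.8 CPM in adequate and 15.9, 19.6 and 14.2 in deficient libraries. Its log2 fold change in deficient against adequate was -0.69 (SE 0.36, with an adjusted p of 0.377 by edgeR), and without adequate library 1 it was -0.34. Rfc2, another small subunit, was at 55.1, 52.3 and 48.1 CPM in restricted and 41.0, 47.5 and 31.5 in deficient libraries, which do not overlap; the log2 fold change was -0.37, with SE 0.24 and an adjusted p of 0.788 by edgeR, or -0.23 without deficient library 3. Rfc4 reached -0.55 in deficient against supplemented (SE 0.33, with an adjusted p of 0.889 by edgeR), and it came to -0.32 without deficient library 3 and -0.86 without deficient library 2.

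The 3 genes of single-strand binding and flap joining (Rpa2, which coats unwound DNA, Fen1, which trims flaps, and Lig1, which seals nicks) had log2 fold changes below 0 in deficient against each of the other diets, but these leaned on few libraries. Fen1 had 52.3, 55.7 and 21.8 CPM in deficient libraries, and without deficient library 3 its log2 fold changes turned to 0.19, 0.13 and 0.17 against adequate, restricted and supplemented. Lig1 against adequate turned from -0.17 to 0.15 without adequate library 3, and against supplemented went from -0.34 to -0.20 without supplemented library 5. Their smallest edgeR adjusted p in those comparisons was 0.396 (Rpa2 against adequate, log2 fold change -0.54, or -0.27 without adequate library 1). Against restricted Rpa2 had -0.27 and against supplemented -0.26, which came to -0.07 and -0.06 without deficient library 3. Lig1 separated the deficient from the restricted libraries, at a log2 fold change of -0.37 (SE 0.27, with an adjusted p of 0.821 by edgeR).

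The 4 genes of nucleotide supply all had log2 fold changes below 0 in deficient against restricted, Rrm2 only with deficient library 3 and restricted library 2 included. Rrm2 had 129.3, 138.2 and 55.9 CPM in deficient and 103.2, 154.0 and 109.1 in restricted libraries, and its value of -0.18 turned to 0.13 without deficient library 3. Tk1 had 139.8, 59.5 and 95.5 CPM in adequate, 112.9, 110.9 and 120.3 in restricted, 92.7, 83.6 and 55.7 in deficient, and 75.7 to 143.0 (median 95.9) in supplemented libraries. Deficient libraries were all below restricted ones, and both lay within the adequate range except for deficient library 3. Tk1's log2 fold change in deficient against restricted was -0.57 (SE 0.28, unadjusted p = 0.0640, edgeR adjusted p = 0.691), and -0.38 without deficient library 3.

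Tyms, which makes thymidylate, had 89.8, 33.7 and 51.9 CPM in adequate, 68.4, 66.3 and 66.0 in restricted and 60.3, 51.9 and 38.97 in deficient libraries, and 50.5 to 95.8 (median 61.0) in supplemented. The restricted libraries spanned the narrowest range, and the adequate ones the widest. The log2 fold change of Tyms in deficient against restricted was -0.41 (SE 0.30, with an adjusted p of 0.821 by edgeR), and -0.25 without deficient library 3. Rrm1 had -0.38 in the same comparison (SE 0.20, with an adjusted p of 0.696 by edgeR), with 165.9, 151.7 and 148.2 CPM in restricted against 125.0, 132.8 and 98.9 in deficient libraries.

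Of the 4 G1/S regulators, E2f2 and E2f1 departed from the joint level, as Gins2 did, while Ccne1 and Ccne2 correlated with the mean of the other genes at 0.882 and 0.789. E2f2, an activating E2F, had 7.94, 5.47 and 10.004 CPM in adequate libraries. It had 13.9, 9.94 and 22.2 in restricted and 15.6, 10.6 and 20.7 in deficient libraries, and from 12.95 through 16.8 to 18.7 in supplemented ones. Adequate libraries were below every supplemented and every deficient library, and they met the restricted range at restricted library 2, which lay between adequate libraries 1 and 3. Group means were 7.80 ± 2.27 CPM (SD, n = 3) in adequate, 16.2 ± 2.27 (n = 6) in supplemented, 15.3 ± 6.26 (n = 3) in restricted and 15.6 ± 5.04 (n = 3) in deficient. The log2 fold change was 1.05 in supplemented (SE 0.29, unadjusted p = 0.00232, edgeR adjusted p = 0.313), 1.00 in deficient (SE 0.32, unadjusted p = 0.00697, adjusted 0.191) and 0.97 in restricted (SE 0.32, unadjusted p = 0.00820, adjusted 0.396). Without restricted library 3 the last of these was 0.61. Between the other diets the log2 fold changes were -0.08 to 0.03. Diet took 59.2% of the variance of E2f2. In deficient library 3 and adequate library 2, the libraries where most of the 39 genes were lowest, E2f2 was at 20.7 and 5.47 CPM.

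E2f1, the other activating E2F, had 24.8, 21.2 and 38.0 CPM in adequate, 29.7, 38.8 and 39.6 in restricted, 40.3, 34.7 and 35.6 in deficient, and 33.5 to 41.3 (median 35.5) in supplemented libraries. Adequate library 3 lay within the range of the other diets. The log2 fold change was 0.40 in supplemented (SE 0.18, unadjusted p = 0.0396, edgeR adjusted p = 0.506), 0.40 in deficient (SE 0.20, adjusted 0.361) and 0.36 in restricted (SE 0.20, adjusted 0.635). Without adequate library 2 these were 0.23, 0.23 and 0.20, and without adequate library 3 they were 0.68, 0.68 and 0.65.

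Ccne1 and Ccne2 encode the E cyclins that start S phase with Cdk2. Ccne2 spanned the widest range of the 39 genes, 5.17-fold, and both ends were adequate libraries: 33.96, 6.57 and 11.7 CPM. The highest of these, adequate library 1, includes the low scaling factor of 0.690. Restricted libraries had 15.04, 19.2 and 16.8, deficient libraries 18.96, 18.2 and 9.39, and supplemented libraries 12.5 to 24.1 (median 17.3). Every diet overlapped, and the log2 fold changes against adequate were -0.16, -0.03 and 0.06 for deficient, restricted and supplemented, with SEs of 0.39 to 0.45. Without adequate library 1 they were 0.76, 0.88 and 0.97, and without adequate library 2 they were -0.55, -0.42 and -0.33. Ccne1 had 60.9, 28.7 and 45.8 CPM in adequate, 50.8, 51.4 and 45.7 in restricted, 43.2, 44.9 and 21.7 in deficient, and 32.6 to 57.9 (median 40.9) in supplemented libraries. Its deficient libraries were all below the restricted ones, the nearest 2 being 44.9 and 45.7, at a log2 fold change of -0.43 (SE 0.30, with an adjusted p of 0.810 by edgeR), or -0.16 without deficient library 3.

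**Figure D3:**
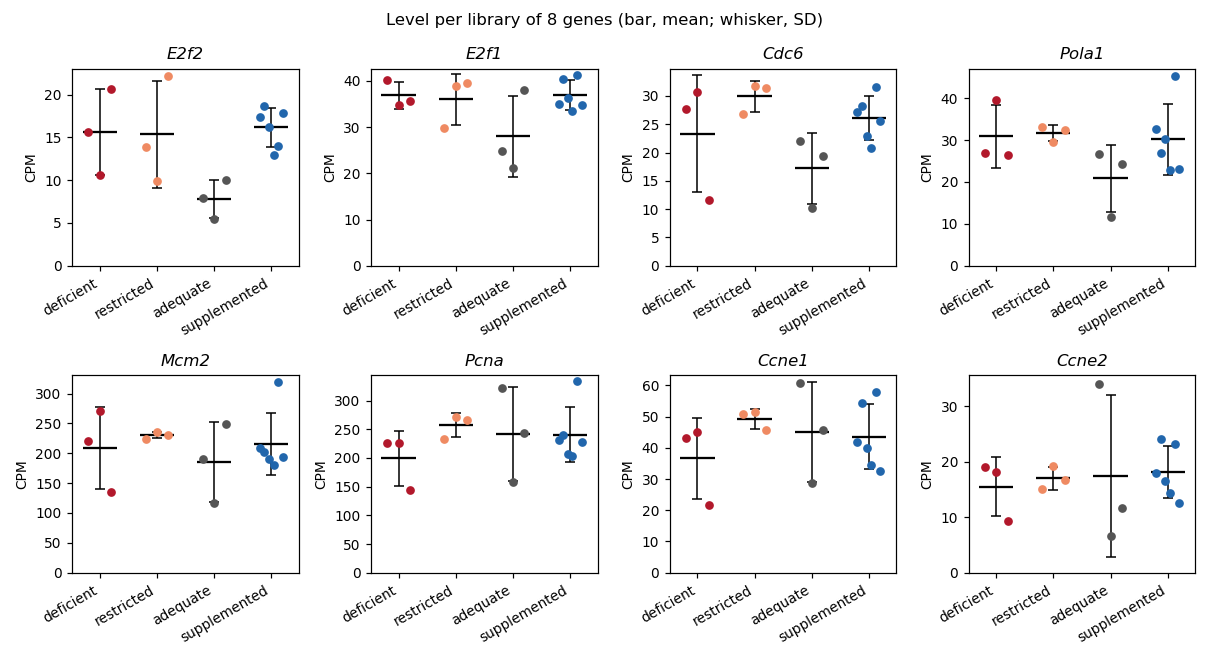
CPM per library of 8 genes by diet, each on its own axis from 0; bars are means and whiskers SDs. The 3 adequate libraries are lowest for E2f2 (5.47 to 10.004 CPM) apart from an overlap with restricted library 2 at 9.94, whereas Ccne2 has both its highest and its lowest library in the adequate group.

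Of the genes for histone supply and chromatin assembly, Chaf1b, a subunit of the assembly factor CAF-1 that deposits histones behind the fork, had 42.8, 49.3 and 29.4 CPM in deficient libraries against 41.5 to 80.9 (median 54.6) in supplemented ones. The groups overlapped, and the log2 fold change was -0.46 (SE 0.22, unadjusted p = 0.0516, edgeR adjusted p = 0.870); it was -0.27 without deficient library 3. Slbp, which binds the stem-loop of histone mRNAs, and Chaf1a had log2 fold changes between -0.17 and 0.30 in all 6 comparisons.

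Counted over the 39 genes, directions leaned by comparison but hung on few libraries. In deficient against adequate, 14 of 39 were above 0 (median log2 fold change -0.08), where 52.9% of all genes were above and 47.1% below 0, with a median of 0.04. Leaving out adequate library 2 gave 6 of 39, and leaving out deficient library 3 gave 25. In restricted against adequate, 30 of 39 were above 0 (median 0.19; all genes 50.4% above and 49.6% below, median 0.00), with 18 when adequate library 2 was left out. In supplemented against adequate, 27 were above 0 (median 0.11; all genes 52.9% above and 47.1% below, median 0.03), with 11 when adequate library 2 was left out and 36 without adequate library 1.

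In deficient against restricted, 36 of 39 were below 0 (median -0.28), where 48% of all genes were below and 51.9% above 0, and their median was 0.02. In deficient against supplemented, 36 were also below 0 (median -0.17; all genes 47.5% below and 52.5% above, median 0.02). Without deficient library 3, 11 genes were above 0 in the first of these with a median of -0.08, and 23 in the second with a median of 0.03, in place of 3 each. The deficient libraries enter both comparisons. In restricted against supplemented, 28 were above 0 (median 0.07; all genes 48.3% above and 51.7% below, median -0.01).

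Libraries that did not overlap at all between 2 diets were few, apart from deficient against restricted. There 10 of the 39 genes had all deficient libraries below all restricted ones, against 6.38% of all genes (10 against 10.4% without deficient library 3, 23 against 12.7% without deficient library 2): Gins3, Prim1, Pcna, Rfc2, Rfc5, Lig1, Rrm1, Tyms, Tk1 and Ccne1. None was above, against 4.71% of all genes. In restricted against adequate 5 were wholly above (Cdc6, Mcm4, Mcm10, Pola1 and Pold1; all genes 8.37%) and none below (8.27%), with 17 and 12 wholly above when adequate library 1 or 3 was left out (all genes 15.2% and 13.8%). In deficient and in supplemented against adequate E2f2 alone was wholly above (all genes 7.91% and 2.14%) and none was below (7.96% and 2.24%). In deficient against supplemented none was apart (all genes 1.01% above and 0.9% below), nor in restricted against supplemented (1.32% above and 0.787% below).

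**Figure D4:**
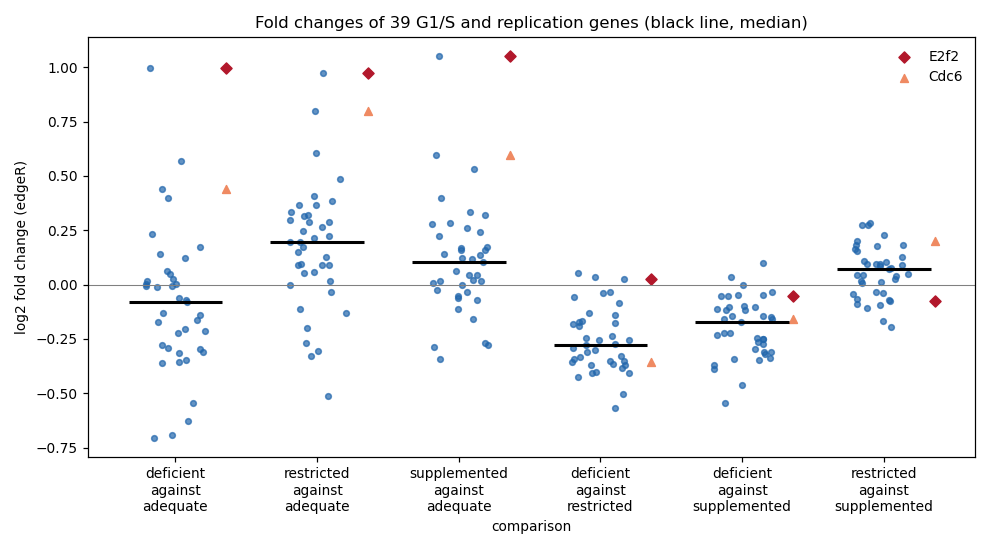
log2 fold changes (edgeR) of the 39 genes in each comparison, with the median as a black line; E2f2 and Cdc6 are drawn again to the right of each cloud. The median is lowest in deficient against restricted (-0.28) and highest in restricted against adequate (0.19), and E2f2 lies near 1 in the 3 comparisons against the adequate diet.

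The G2/M and mitosis list (40 genes, all tested) was measured in the same libraries. Its joint level was 0.16, 0.33 and 0.33 in restricted and -0.10, -0.01 and -0.74 in deficient libraries. It was 0.08, -0.55 and 0.11 in adequate and -0.10 to 0.30 in supplemented libraries. The restricted libraries were all above the deficient ones, and adequate library 2 and deficient library 3 were again the lowest. In deficient against restricted 39 of the 40 were below 0, with a median of -0.53, and 24 had all deficient libraries below all restricted ones, where 48% and 6.38% of all genes did so. By edgeR with all 15 libraries 0 of 40 were called, with 19 lower at an unadjusted p under 0.05 against 2.28% of all genes. The smallest p was that of Kif2c, a mitotic kinesin gene (log2 fold change -0.73, SE 0.22, unadjusted p = 0.00373, edgeR adjusted p = 0.649). Without deficient library 3, 39 were below 0 and 24 wholly below (all genes 49.7% and 10.4%), with a median of -0.33. In that fit 5 genes, in place of 19, were lower at an unadjusted edgeR p under 0.05. The share of all genes lower at that level without deficient library 3 is not given here.

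Subtracting the joint level of the 39 G1/S and replication genes from that of the G2/M genes removed most of the shared variation. The difference was 0.05, 0.22 and 0.13 in restricted and -0.11, -0.12 and -0.15 in deficient libraries. It was -0.20, 0.05 and 0.06 in adequate and -0.26 to 0.14 in supplemented libraries. Restricted and deficient libraries did not overlap, and deficient library 3, which is low in both lists, lay with the other deficient libraries on this scale. With the separate list of other replication factors in place of the 39 genes, the values were 0.11, 0.25 and 0.21 in restricted and -0.13, -0.14 and -0.21 in deficient libraries. They were -0.29, -0.20 and 0.05 in adequate and -0.19 to 0.19 in supplemented libraries. Adequate library 1 thus lay below every deficient library, and low values were not limited to the deficient diet. These differences are descriptions, chosen after the lists had been seen, and carry no test.

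**Figure D5:**
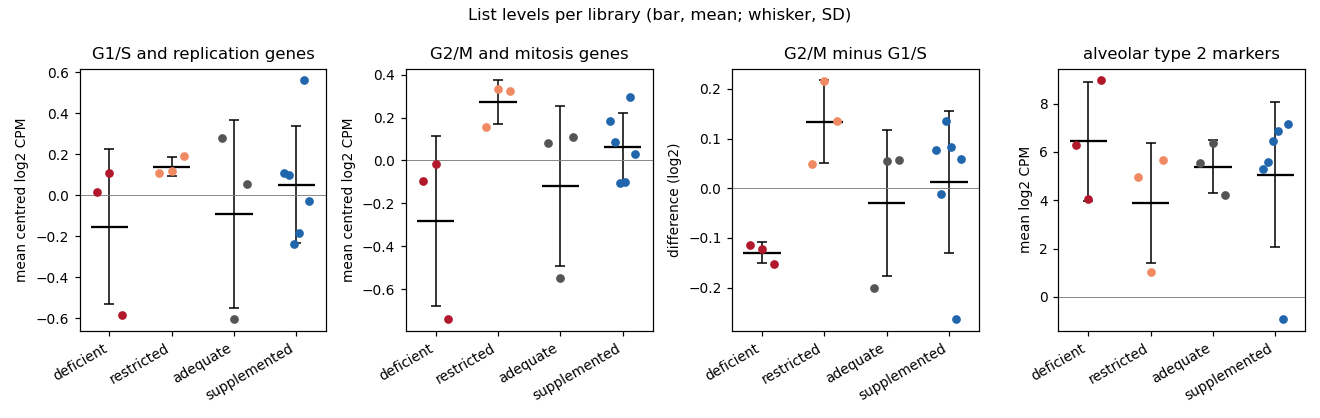
Joint level per library of the 39 genes, of 40 G2/M genes, of their difference and of 8 alveolar type 2 genes, by diet; bars are means and whiskers SDs. The 3 deficient libraries lie between -0.15 and -0.11 in the difference and the 3 restricted ones between 0.05 and 0.22, while the alveolar markers overlap between all diets.

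Other genes of the pathway were taken from 4 further lists: 35 other replication factors, 26 other G1/S control genes (24 tested), 20 other nucleotide synthesis genes and 19 other S phase chromatin genes. None was called by edgeR in any comparison. Of the 35 other replication factors, 3 were lower and 0 higher in deficient than in adequate at an unadjusted edgeR p under 0.05. Over all genes, 5.84% were lower and 9.29% higher. The leading gene was the polymerase epsilon subunit gene Pole3 (log2 fold change -0.62, SE 0.21, unadjusted p = 0.0109). In restricted 2 passed each way (all genes 4.87% higher and 4.31% lower), led by the topoisomerase gene Top1 (0.40). In supplemented 2 also passed each way (all genes 4.85% higher and 4.92% lower), led by the origin firing gene Ticrr (0.62). In deficient against restricted 2 were lower (all genes 2.28%), led by the fork protection gene Timeless (-0.70, SE 0.27, unadjusted p = 0.0186).

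Of the other G1/S control genes, the repressor E2f7 was the leading gene in restricted against adequate (1.04, SE 0.34, unadjusted p = 0.00705), and the repressor E2f8 in supplemented against adequate (0.70, SE 0.21, unadjusted p = 0.00505). E2f8 had 14.1, 8.12 and 12.6 CPM in adequate libraries, below each supplemented library (15.2 to 22.3). E2f7 had 6.36, 4.06 and 8.96 in adequate and 11.5, 12.3 and 16.2 in restricted libraries, which do not overlap. In deficient against adequate the leading gene was Cdkn1b (-0.51, and -0.28 without deficient library 3), which encodes the cyclin kinase inhibitor p27, and in deficient against restricted Cdk2 (-0.52, SE 0.19, unadjusted p = 0.0174), the kinase that the E cyclins activate.

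Samhd1, an enzyme that breaks down the deoxynucleotides which the nucleotide synthesis genes supply, led its list in all 3 comparisons against adequate. Its CPM was 32.9, 34.8 and 28.6 in adequate, 59.0, 38.3 and 64.3 in restricted and 60.8, 46.2 and 89.6 in deficient libraries, and 37.1 to 66.5 in supplemented ones. Every adequate library was below every library of the other diets. The log2 fold changes were 1.03 in deficient (SE 0.26, unadjusted p = 0.00103, edgeR adjusted p = 0.149), 0.75 in restricted (adjusted 0.407) and 0.71 in supplemented (adjusted 0.357). Samhd1 is also expressed by immune cells; the summed CPM of 8 macrophage markers was 148 to 484 in adequate, 225 to 697 in supplemented, 164 to 354 in restricted and 300 to 2077 in deficient libraries, and their part in this result was not tested. Among the S phase chromatin genes the leading ones were Rbbp4 (-0.30) in deficient and Atad2 in restricted (0.62) and supplemented (0.55) against adequate, and Asf1b (-0.67) in deficient against restricted. Rbbp4 had -0.09 without adequate library 1, Atad2 had 0.35 and 0.29 without adequate library 2, and Asf1b had -0.36 without deficient library 3.

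In deficient against supplemented, the smallest p-values of the lists belonged to Wdhd1 (log2 fold change -0.53) among replication factors, Rbl2 (0.33) among G1/S control genes, Tk2 (-0.47) in nucleotide synthesis, Asf1b (-0.52) in S phase chromatin and Espl1 (-0.54) in G2/M. In restricted against supplemented they belonged to Mcm8 (0.57), Rbl2 (0.17), Umps (0.32), Dnmt1 (0.32) and Kif2c (0.44), in the same order of lists. Umps, an enzyme of pyrimidine synthesis, also led nucleotide synthesis in deficient against restricted (-0.46). Among G2/M genes, Mad2l1 of the spindle checkpoint led in deficient against adequate (-0.85), Kif2c in restricted against adequate (0.69) and Espl1, which encodes separase, in supplemented against adequate (0.64). All of these had edgeR adjusted p-values above 0.05. Without deficient library 3, Wdhd1 came to -0.34 and Asf1b to -0.21 against supplemented. Without adequate library 1, Mad2l1 came to -0.43 and Espl1 to 0.41 against adequate, and Umps against supplemented came to 0.20 without restricted library 3.

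Outside the 39 genes, the 10 genes with a symbol whose log2 CPM followed the joint level most closely over the 15 libraries were Dut (Pearson r = 0.959), Rad51ap1, Sae1, Hells, Fanci, Ccna2, Aurkb, Spag5, Pclaf and Msh6 (0.922). Dut, which removes dUTP, and Hells and Msh6 stand on the other S phase lists, and Ccna2 and Aurkb on the G2/M list. Dut ran from 22.6 to 69.7 CPM over the libraries. These correlations rest on the same libraries and scaling.

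Exons of 15 of the 39 genes overlap an exon of another gene on the other strand in GENCODE M21, among them Tk1 (Afmid), Rfc2 (Lat2), Ccne2 (Ints8), Gins2 (Gse1), Chaf1a (Ubxn6) and Mcm7 (Ap4m1 and Cops6). The library kit marks strand, but whether the counting used it is not given in the sources used here, so values of these genes may include reads of the partner. E2f2, E2f1, Cdc6, Pola1 and Pcna have no such overlap.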

How the data were processed

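RNA of 15 metastasis libraries was measured. The authors deposited, per gene, the expected count and TPM that RSEM writes; build NCBIM37, Bowtie2 2.2.9, RSEM 1.30 and edgeR are named in, and credited to, the submitters' processing notes. Neither the strand setting nor the annotation release is given in the sources used here. TPM served only to rank the members' levels. IDs were matched to symbols (32897 of 37620). Expected counts were rounded and tested with edgeR 4.0.16 (R 4.3.3): filterByExpr on the diets, TMM scaling, a mean per diet over all 15 libraries with 11 residual degrees of freedom, glmQLFTest and Benjamini-Hochberg adjustment at 0.05. CPM values are TMM-scaled; log2 CPM has a prior count of 2; CPM per kb uses RSEM's effective length. Self-tests ran on simulated counts.

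The members and gene lists were chosen with earlier results of these data known. Per comparison, members are named if called, otherwise the 4 with the smallest p; Pcna, Mcm2, Ccne1, Ccne2, E2f1, E2f2 and Tyms, and the 2 highest and 2 lowest by mean TPM, are always named, as is the gene with the smallest p of each pathway list, and the 10 genes most like the members. The 5 pathway lists hold 140 genes (138 tested) and the 11 marker lists 83 (76 tested). Alternatives were other scalings, DESeq2 1.42.0, limma-voom (limma 3.58.1), no filter, an alveolar type 2 covariate, contrasted groups alone and libraries left out. The 24 library pairs within diets had Spearman correlations of 0.884 to 0.980 and chi-square values of at least 27.6 per degree of freedom. These chi-square values exceed those of resequencing the same library, but they cannot tell whether libraries came from the same mouse. Promoters are RefSeq's of GRCm38.p6, another build than that of the counts, and 6 members had no entry (Mcm4, Gins1, Gins2, Pole, Rfc2 and Ccne2).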

Additional observations from a re-analysis of the deposited data

Results flagged for a closer look

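Among the 6 supplemented libraries, the Dixon test picked out the highest or lowest library for 10 of the 39 genes. Chance picks out about 1 in 20 groups, and the genes share libraries. In 9 of the 10 it was supplemented library 5, which lay above the other 5: Mcm2 at 320.0 CPM, Mcm5 at 183.9, Mcm6 at 127.6, Mcm7 at 130.3, Pold1 at 108.4, Pcna at 334.2, Rfc3 at 40.04, Rfc5 at 74.6 and Slbp at 51.4. Pole was lowest in supplemented library 3, at 30.3 CPM. The same supplemented library 5 stood apart in 3 marker lists, by its low mean log2 CPM of alveolar type 2 (-0.91) and alveolar type 1 genes (-0.11) and its high level of skeletal muscle genes (7.87). The part of these in its high replication genes was not tested.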

How the results depend on the processing

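No paired analysis was possible because the labels give no replicate numbers. No member was called under any alternative except E2f2 in supplemented against adequate by DESeq2 (1 member called). For the 4 members with the smallest p per comparison, 396 values under alternatives were compared. Of these, 395 kept direction and side of the threshold, 1 passed it and 0 reversed. Other named members did reverse: Mcm2, Pcna and Ccne2 each changed sign in a comparison against adequate when 1 adequate library was left out. Counts of all genes called moved as follows. In deficient against adequate (1) DESeq2 gave 588, omission of 3 libraries (adequate 1, supplemented 5, deficient 3) 5, and upper-quartile scaling, no filter, the alveolar type 2 covariate, contrasted groups alone and omission of the 2 libraries lowest in the members (adequate 2 and deficient 3, chosen after seeing the data) 0 each. In restricted against adequate (0) DESeq2 gave 131, the covariate 29 and omission of the 3 libraries 66. In supplemented against adequate (0) these were DESeq2 137, limma-voom 3 and omission of the 3 libraries 2. DESeq2 gave 9 in deficient against restricted (0). For any difference (1) DESeq2 gave 270, limma-voom 0, no filter 8, the covariate 2 and omission of the 3 libraries 3. Leaving out 1 library at a time gave 0 to 4 genes in deficient against adequate, 0 to 5 in restricted against adequate and 0 to 2 for any difference. The cause was not tested.

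Directions of the members moved with libraries. Without the 3 libraries the median in deficient against adequate was 0.36, with 31 members above 0 in place of 14. Members above 0 without the 2 lowest libraries were 18 in restricted and 11 in supplemented against adequate. In deficient against restricted (3) they were 12 with the covariate and 11 under either omission, and in deficient against supplemented (3) 12 with the covariate, 27 without the 3 libraries and 23 without the 2 lowest. With 1 library left out, members above 0 ranged from 6 to 25 in deficient, 18 to 35 in restricted and 11 to 36 in supplemented against adequate. They ranged from 2 to 11 in deficient against restricted, 1 to 23 in deficient against supplemented and 20 to 36 in restricted against supplemented. Medians ranged from -0.30 to 0.16, -0.04 to 0.36, -0.13 to 0.25, -0.41 to -0.08, -0.35 to 0.03 and 0.01 to 0.18 in the same order of comparisons. Depth limits Orc1, with as few as 31 counts, most of the members.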
